A study of Mus musculus with 20 samples.

Results

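The genes described here are the cytoplasmic translation factors and aminoacyl-tRNA synthetases of the mouse prostate, followed through castration and androgen replacement. Members were chosen by name: a probe set counted when its single gene symbol began with Eif or Eef and a digit, or named a cytoplasmic aminoacyl-tRNA synthetase. The rule found 68 of the 8251 genes that the array reads by a probe set of 1 symbol, through 88 of 12422 probe sets that were not array controls. By role they were 47 probe sets for initiation factors, 11 for regulators named after the factor they act on, 8 for elongation factors and 22 for synthetases. Of the 88, 69 probe sets for 58 genes passed the filter on low signals and were tested. These 69 and the 19 below the filter are kept apart throughout, and each gene is measured by its own probe sets, so levels were not compared between genes.

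The tissue was the whole prostate, taken from C57/B6 mice between 10 and 12 weeks old, and its RNA was measured on Affymetrix MG-U74A arrays, 1 array per mouse and 5 mice per group. The sham group was sham-treated. One castrated group was killed at 3 days and another at 14 days. The fourth group was castrated, received a testosterone pellet of 15 mg on day 14 and was killed 3 days later; it is called the testosterone group below. All castrated groups therefore share the loss of testicular androgen, and the testosterone group differs from the 14-day group by the pellet and by 3 further days. A castrated group without testosterone at that later day was not analysed here, and the same sham group serves all comparisons.

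A ribosome makes protein from amino acids that synthetases have joined to their tRNAs, 1 enzyme for most amino acids. Initiation factors bring the small ribosomal subunit, the initiator tRNA and the capped mRNA together, and elongation factors then deliver charged tRNAs and move the ribosome along. Translation is slowed when kinases phosphorylate eIF2, which at the same time favours production of the transcription factor ATF4, and when the eIF4E-binding proteins hold the cap-binding factor eIF4E; the mTOR kinase releases that hold. The prostate is a secretory gland whose epithelium depends on androgen for its secretory output, regresses after castration and regrows when testosterone is given.

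The deposited values are MAS5 signals on a linear scale, and changes are given as log2 differences of signal plus a pseudocount, with the standard error (SE) of the limma model over all 20 arrays. A probe set is called when its Benjamini-Hochberg adjusted p over the 6913 tested probe sets is under 0.05. Array medians ran from 154 to 224. On 4 arrays (castrated 14 days replicates 4 and 5, testosterone replicates 2 and 5) the log2 ratio of the 3′ to the 5′ Gapdh control lay between 1.82 and 4.54, against -0.53 to -0.08 on the other 16, so results that move when these 4 arrays are left out are given both ways. The prostate's luminal markers were present: the signal summed over 8 luminal probe sets had a median of 44180 in sham, 35040 at 3 days, 24504 at 14 days and 35361 after testosterone. The summed signal of 21 macrophage and myeloid probe sets had medians of 5493, 10953, 20529 and 9655 in the same order. A sum need not describe its single probe sets. Of 7 tested luminal probe sets, 3 rose and 3 fell with testosterone against the 14-day group (median -0.25), where 18.2% and 26.6% of all did. In whole tissue, fewer cells of a type and less RNA per cell cannot be told apart, and the part of cell composition in the changes below was not tested.

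Fewer members were called at 3 days than at 14 days, and most of those called at either time were lower. At 3 days, 13 of the 69 probe sets fell and 1 rose against sham, where 4.46% of all tested probe sets fell and 9.84% rose (14.3% together). At 14 days, 39 fell and 7 rose, where 24.3% of all tested probe sets fell and 28.6% rose (52.9% together). Among the 39, an Eif4ebp2 and an Eif2s2 probe set passed the filter through groups where they were high, so their falls add nothing to the count. The same holds wherever their lower calls are counted. The median member change was -0.43 at 14 days, against 0.01 for all tested probe sets. The arrays appear scaled to a common mean, so this fall is relative to the rest of the array. A change of all RNA together could not be seen.

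Between 3 and 14 days of castration, 34 member probe sets fell and 4 rose, against backgrounds of 20.4% and 20.2% (40.5% together). With testosterone, 28 rose and 6 fell against the 14-day group, where 18.2% of all tested probe sets rose and 26.6% fell (44.8% together). Against sham, the testosterone group still had 29 member probe sets lower and 8 higher, with backgrounds of 29.5% and 23.5% (53.0% together). The 2 comparisons with testosterone depended on the scale: centring each array on its median moved the median of all tested probe sets from -0.10 to 0.09 against the 14-day group and from -0.09 to 0.08 against sham. Member calls then became 38 higher and 2 lower (background 26.4% and 14.8%) against the 14-day group, and 12 higher and 16 lower (background 29.3% and 17.4%) against sham. Changes in these comparisons are read against that shift of the whole array. The 5 comparisons share arrays: the sham and the 14-day group each enter 3 of them, and the 3-day and the testosterone group each enter 2.

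**Figure D1:**
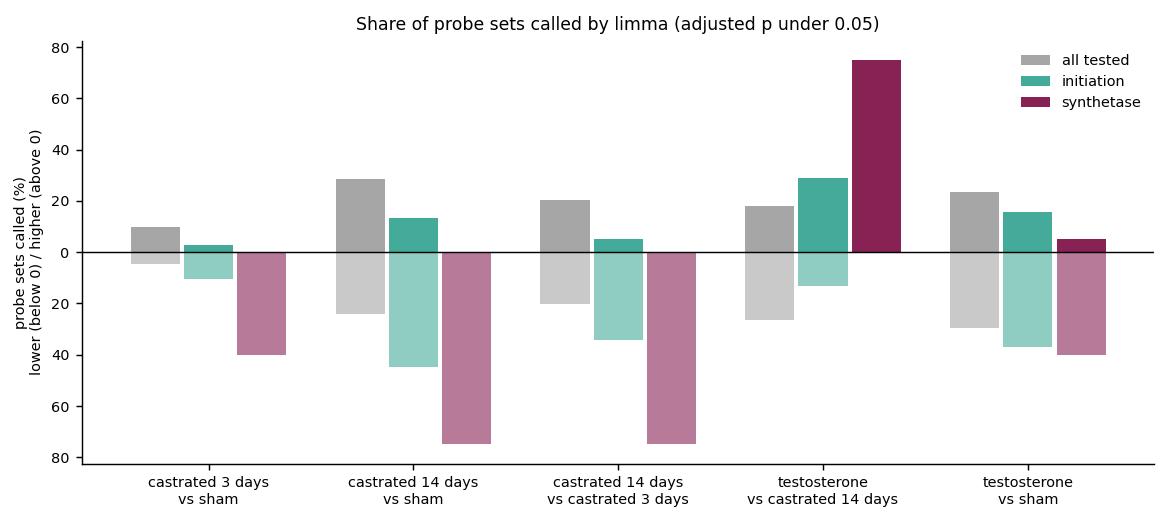
Percentage of probe sets called higher (above the zero line) or lower (below it) in each comparison, for all 6913 tested probe sets, the 38 tested initiation factor probe sets and the 20 tested synthetase probe sets. The synthetases were called lower in 40.0% at 3 days and 75.0% at 14 days against sham, with none called higher, and were called higher in 75.0% when the testosterone group was set against the 14-day group.

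Synthetases, the enzymes that charge tRNAs, fell after castration and rose with testosterone. Of their 20 tested probe sets, 8 fell at 3 days and 15 at 14 days against sham (4.46% and 24.3% of all tested probe sets). None rose at either time (9.84% and 28.6% of all). Testosterone raised 15 of the 20 against the 14-day group and lowered none (18.2% and 26.6% of all). The median synthetase change was -0.21 at 3 days, -0.90 at 14 days, 0.50 for testosterone against 14 days and -0.39 for testosterone against sham. The last was -0.13 without the 4 arrays of high Gapdh ratio and -0.23 once arrays were centred on their medians. In 7 of 20 probe sets every 3-day array lay below every sham array, and in none above, against 4.54% and 8.77% of all tested probe sets. In 16 of 20 every 14-day array lay below every sham array, which 15.7% of all tested probe sets did. In 11 of 20, every testosterone array lay above every 14-day array, which 12.5% of all tested probe sets did. Without the 4 arrays of high Gapdh ratio, 16 of 20 fell at 14 days and 14 rose with testosterone.

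Gars, which charges tRNA with glycine and also serves the mitochondrion, fell early and came back in full. Its signal was 2576, 2259, 1550, 2722 and 2211 on the sham arrays, and 1345, 1279, 1244, 1320 and 1292 at 3 days. It was 787, 935, 788, 924 and 1031 at 14 days, and 2237, 1930, 2128, 1960 and 2311 after testosterone. The 3 groups of castrated mice without overlap stood in the order 14 days, 3 days, testosterone, and the testosterone arrays lay within the sham range. Gars fell by 0.77 (SE 0.12, adjusted p = 0.000302) at 3 days and by 1.31 (SE 0.12, adjusted p = 4.85e-08) at 14 days. Testosterone raised it by 1.24 over the 14-day group (adjusted p = 1.38e-07), and the remaining difference from sham was -0.08 (SE 0.12, adjusted p = 0.613).

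Tars, the threonine enzyme, and Farsb, the beta subunit of the phenylalanine enzyme, also ended near sham. Tars had a mean of 1011 ± 147 (SD, n = 5) in sham, 783 ± 59.6 at 3 days, 597 ± 25.3 at 14 days and 996 ± 97.3 after testosterone. Its log2 change was -0.36 at 3 days, -0.74 at 14 days and -0.02 after testosterone (adjusted p = 0.902). Farsb was not called at 3 days (-0.11), was 0.65 lower at 14 days and differed by -0.04 from sham after testosterone. For both, all 5 testosterone arrays lay above all 5 of the 14-day arrays. Qars, the glutamine enzyme, had a smaller course of the same kind, with -0.39 at 14 days and -0.13 after testosterone.

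Other synthetases returned in part. Cars, the cysteine enzyme, had 1024, 633, 704, 735 and 723 in sham and 399, 482, 417, 685 and 453 at 3 days. It then had 303, 302, 270.1, 312 and 245 at 14 days and 473, 416, 499.7, 409.5 and 407 after testosterone. The testosterone arrays lay above every 14-day array and below every sham array. Cars was 1.36 lower than sham at 14 days (SE 0.14, adjusted p = 1.53e-07), 0.60 higher after testosterone than at 14 days, and still 0.76 lower than sham (adjusted p = 0.00016).

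Mars1, which charges both the initiator and the elongator tRNA with methionine, lay between 840.0 and 1208 in sham, between 529 and 619 at 3 days, between 454 and 490.1 at 14 days and between 597 and 776 after testosterone. None of these 4 ranges overlapped except those of 3 days and testosterone. Most of the fall was present at 3 days (-0.73, SE 0.10, adjusted p = 5.85e-05), and the value at 14 days was -1.03. After testosterone Mars1 stood at -0.49 against sham (adjusted p = 0.000326); with each array centred on its median that difference was -0.32 (adjusted p = 0.0611). Lars, the leucine enzyme, had means of 1868, 1416, 931 and 1348 in the same order of groups and kept a difference of -0.47 from sham. Iars, the isoleucine enzyme, went from 1497 to 901 at 14 days and to 1129 after testosterone, where it was 0.40 below sham. Aars, the alanine enzyme, was 1.26 lower than sham at 14 days and 0.39 lower after testosterone. In these 4 enzymes the testosterone group was called higher than the 14-day group and lower than sham on the deposited scale. With each array centred on its median, the synthetase probe sets lower than sham numbered 4 in place of 8 (17.4% and 29.5% of all tested probe sets). Cars, Sars and Yars kept their calls there. Most of the calls of these 4 enzymes against sham therefore depended on the scale.

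Sars and Yars stayed nearer their 14-day level. Sars, the serine enzyme, had 1111, 1334, 1372, 1269 and 1287 in sham and 960.2, 1200.3, 1142, 1195 and 1053 at 3 days, with no call at that time (-0.20). It had 549.8, 513, 631, 456 and 416 at 14 days, and 656, 563, 799, 707 and 503 after testosterone, so the last 2 groups overlapped while both lay below all sham arrays. Sars was 1.30 lower than sham at 14 days (adjusted p = 7.13e-08) and 0.98 lower after testosterone (adjusted p = 3.54e-06). The rise of 0.32 over the 14-day group (adjusted p = 0.0435) lost its call when any 1 of 7 arrays was left out, the values running from 0.24 to 0.40. Over all 29 alternatives of processing the Sars rise reached 0.51. Yars, the tyrosine enzyme, was called at 3 days (-0.60), fell by 1.16 at 14 days and was 0.85 lower than sham after testosterone; its rise of 0.31 was 0.24 (adjusted p = 0.252) with the 4 high-ratio arrays left out, and the call also ended without any 1 of 6 arrays. Over the same alternatives the Yars rise ran from 0.23 to 0.51. Nars, the asparagine enzyme, fell by 0.82 at 14 days, and its value of 0.31 for testosterone against 14 days was not called (adjusted p = 0.0679).

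Wars, the tryptophan enzyme, which is also known as an interferon-inducible gene, differed in its timing. None of its 3 probe sets was called at 3 days (0.29, 0.07 and -0.02), and all 3 fell at 14 days, by 0.66, 1.71 and 2.28. The change of 2.28 came from the probe set with an s suffix, whose probes can match more than 1 transcript. It had 5056, 5718, 4272, 4319 and 3541 in sham and 4914, 4648, 4305, 4112 and 4403 at 3 days. At 14 days it had 879, 847, 3058, 448 and 648, and after testosterone 3782, 1574, 4609, 4529 and 1601. Replicate 3 of the 14-day group stood far above the other 4 arrays of its group, and the 2 low testosterone arrays were the 2 with a high Gapdh ratio. Without replicate 3 the fall at 14 days was 2.71, and with the 4 high-ratio arrays left out it was 1.77 (adjusted p = 0.00018). After testosterone all 3 rose against 14 days, by 0.99, 1.04 and 1.63, and none was called against sham. The 2 brighter probe sets stood below sham, at -0.68 (adjusted p = 0.0598) and -0.65 (adjusted p = 0.167). The dimmest stood at 0.33 against sham (adjusted p = 0.0927), and was called there at 0.45 (adjusted p = 0.0429) without the 4 arrays and at 0.49 (adjusted p = 0.0211) with centred arrays.

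Hars, the histidine enzyme, took another course. Its signal was 479, 415, 449, 457 and 345 in sham, 432, 470.0, 443, 455 and 397 at 14 days, and 539.9, 555, 643, 678 and 696 after testosterone. Castration at 14 days left it at 0.04 (adjusted p = 0.738), and testosterone lifted every array above both other groups, by 0.53 over sham (SE 0.09, adjusted p = 0.000149). The tested synthetases without a call in any of the 5 comparisons were Eprs (joint glutamate and proline enzyme), Rars (arginine), Vars (valine) and Farsa (alpha subunit of the phenylalanine enzyme). Eprs had means of 892, 815, 778 and 856, with SD from 28.7 to 199. Farsa had 406, 23.9, 431, 351 and 49.9 after testosterone, the 2 lowest being the arrays of high Gapdh ratio. Its changes of -1.12 at 14 days and after testosterone had adjusted p of 0.0779 and 0.0789. The change after testosterone rests on those 2 low arrays, since the others (351 to 431) lay within the sham range. Though not called, every Farsa array at 3 days (232 to 293) and at 14 days (92.3 to 235) lay below every sham array (333 to 454). Farsb, its partner subunit, was also lowest on those 2 arrays, though only at 628 and 680.3 in a group that reached 830.3.

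**Figure D2:**
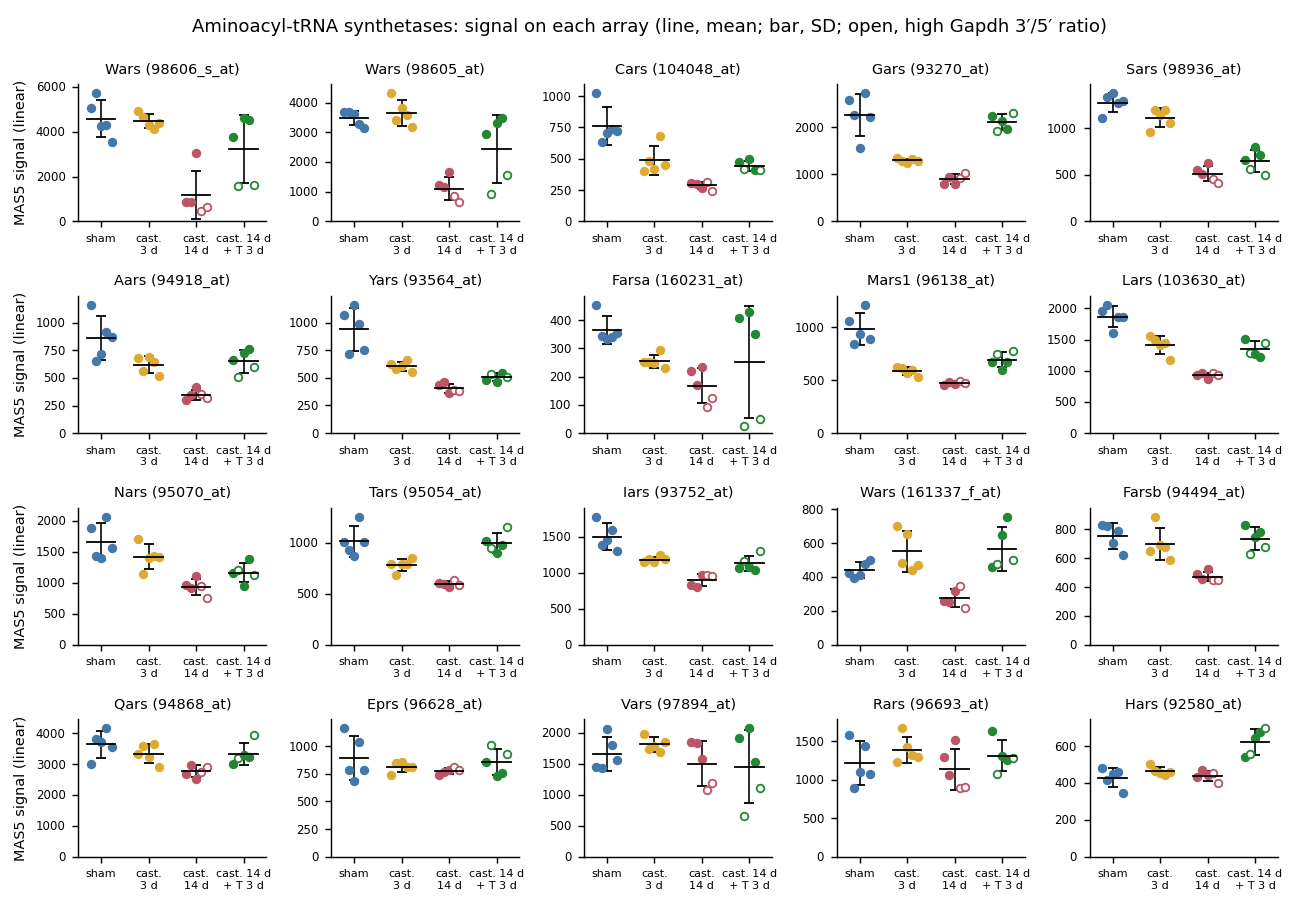
MAS5 signal (linear axis from 0) of the 20 tested synthetase probe sets on each of the 20 arrays, ordered by the log2 change at 14 days; lines are means, bars 1 SD over 5 mice, and open circles the 4 arrays of high Gapdh ratio. Gars goes from a mean of 2264 in sham to 893 at 14 days and 2113 after testosterone, while Sars goes from 1275 to 513 and 645.5, and in Vars, Farsa and the brighter 2 probe sets of Wars the open circles lie low in the testosterone group.

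The promoters of the members were searched for TGATGNAA, the core of the C/EBP-ATF composite element that ATF4 is known to bind. Both strands were read in windows from 250 bases before to 50 after the RefSeq start (GRCm38.p6). Windows were found for 53 of the 68 member genes, 68 windows in all because some genes have several starts, and for 12 of the 19 synthetases with 1 window each. The motif was in 5 of these 12 (41.7%), in 1 of 33 initiation factor windows (Eif2s3x), in 1 of 13 regulator windows (Eef2k), in none of 10 elongation factor windows, in 2.16% of 5607 windows of the genes of all tested probe sets, and in 3.97% of all 32851 windows. The stretches around the match in 4 of these synthetases are shown so that the matched letters can be read in place; capitals mark the match, read 5′ to 3′ on the gene's strand, and all but that of Yars are the reverse complement of the motif. The Gars match begins at -30 and the Tars match at -15, while those of Iars and Yars begin 8 and 4 bases after the start.
Gars, chr6:55037960-55037989, plus strand: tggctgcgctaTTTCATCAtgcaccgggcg
Iars, chr13:49682126-49682155, plus strand: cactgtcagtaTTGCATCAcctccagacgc
Tars, chr15:11399655-11399684, minus strand: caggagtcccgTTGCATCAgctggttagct
Yars, chr4:129189895-129189924, plus strand: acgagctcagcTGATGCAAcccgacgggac
A match describes letters only, and a window without one says only that these letters are not in it. The 5 synthetases with a match fell at 14 days, as did Sars, Mars1, Farsb and Qars, whose windows held none. Cars, Lars, Nars and Wars also fell but had no window. Whether the motif has a part in the changes was not tested. The other search, for CACGTG (the E-box that Myc and Max bind, a sequence that reads the same on both strands), found it in 16 of 68 member windows (23.5%) against 10.6% of the windows of tested genes. For the synthetases it was in 4 of 12 windows, namely those of Aars, Farsb, Iars and Tars.

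Initiation factors were split. Of 38 tested probe sets, 4 fell and 1 rose at 3 days, where 4.46% of all tested probe sets fell and 9.84% rose. At 14 days 17 fell and 5 rose, against 24.3% and 28.6% of all. With testosterone against the 14-day group 11 rose and 5 fell, against 18.2% and 26.6%. Against sham the testosterone group had 14 lower and 6 higher, against 29.5% and 23.5%. The balance against sham turned with the scaling. When arrays were centred on their medians, 16 rose and 2 fell with testosterone against the 14-day group (26.4% and 14.8% of all), and against sham 9 were higher and 6 lower (29.3% and 17.4% of all), with a median of 0.04. The median change was -0.26 at 14 days and 0.10 for testosterone against 14 days. Fewer of them fell at 14 days than of the synthetases, 44.7% against 75.0%, a difference that was not tested.

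The eIF2 complex carries the initiator tRNA and eIF2B recharges eIF2 with GTP. Of 9 tested probe sets of these complexes, 4 fell at 14 days and 1 rose (24.3% and 28.6% of all tested probe sets). Eif2s3x, the gamma subunit of eIF2, had 3317, 4110, 4084, 4358 and 4634 in sham, and 4473, 4482, 4438, 4426 and 4090.3 at 3 days. It had 2520.2, 2515, 2830, 2725 and 2736 at 14 days and 3082, 3368, 3549, 3578 and 3947 after testosterone. The 14-day arrays lay below all others, a fall of 0.61 from sham (SE 0.09, adjusted p = 1.23e-05) that was absent at 3 days (0.10), and testosterone raised it by 0.39 (adjusted p = 0.00136). Its difference of -0.22 from sham after testosterone lost its call without any 1 of 10 arrays. Eif2s3y, its Y-linked copy, was measured by a probe set of the family type and was not called in any comparison. Because these 2 genes are close copies, it is uncertain which transcript each of their probe sets reads. The 2 probe sets of Eif2s2, the beta subunit, disagreed at 3 days (-0.53 called, 0.13 not called) and were both lower than sham after testosterone, at -0.36 and -0.95. The first of these passed the filter on signal on 7 arrays, among them all sham arrays, the group where it was highest. Its fall therefore adds nothing to the 4 of these complexes that fell at 14 days. Its call against sham after testosterone ended for Eif2s2 with centred arrays (-0.19, adjusted p = 0.181) and with quantile normalization (-0.23, adjusted p = 0.099).

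The subunits of eIF2B did not move together. Eif2b2 fell at 3 days (-0.60, adjusted p = 0.0122) and at 14 days (-0.72, adjusted p = 0.000599), its sham arrays lying between 617 and 889 and its 14-day arrays between 316 and 568. Eif2b4 was not called at 3 days (0.09), fell at 14 days (-0.48, adjusted p = 0.000752) and rose by 0.47 with testosterone, back to -0.02 against sham. Eif2b1 had 693, 809, 727, 879 and 762 in sham and 1199.8, 1297, 1391, 1539 and 1534 after testosterone, without overlap and without an intervening fall. It was 0.83 above sham after testosterone (SE 0.11, adjusted p = 4.65e-06); its smaller rise of 0.27 at 14 days lost its call without any 1 of 12 arrays. Of the 2 probe sets of Eif2b5, the catalytic subunit, one was 0.46 higher than sham after testosterone (adjusted p = 0.00023) and the other was not called (0.16), though it stood at 0.54 (adjusted p = 0.00132) without the 4 arrays of high Gapdh ratio. Eif2d, which can deliver tRNA to the ribosome without eIF2, rose by 0.60 with testosterone over the 14-day group (adjusted p = 5.31e-05) and was 0.36 above sham. Eif2a, a separate protein in spite of its name, was called higher at 3 and 14 days at 0.46 each; the first call ended without any 1 of 10 arrays, and the second stood at 0.27 (adjusted p = 0.142) without the 4 arrays.

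eIF3 is the large scaffold that binds the small ribosomal subunit. Of its 10 tested subunits none was called at 3 days, 5 fell at 14 days and 1 rose (24.3% and 28.6% of all tested probe sets). Eif3b had 2850.2, 3109, 3320, 2815 and 3112 in sham and 1647, 1899, 1814, 1302 and 1485 at 14 days, with no overlap, a fall of 0.91 (SE 0.17, adjusted p = 0.00021). After testosterone it ran from 1207 to 2902, lowest on the 2 arrays of high Gapdh ratio; its difference of -0.57 from sham was -0.24 (adjusted p = 0.0547) without the 4 arrays. Eif3d had 1633, 1708, 1719, 1676 and 1858 at 14 days and 2599.7, 2499, 2848, 2502 and 2925 after testosterone. It fell by 0.50 from sham at 14 days (adjusted p = 0.000256) and rose by 0.63 with testosterone (adjusted p = 2.75e-05), ending at 0.13 against sham. Eif3a fell by 0.39 and stayed 0.51 below sham after testosterone, Eif3c fell by 0.33 and Eif3j1 by 0.48. Eif3m was the subunit called higher at 14 days, by 0.53, and Eif3l was called only with testosterone, 0.30 above sham. Eif3e, Eif3f and Eif3k were not called at 3 or 14 days; Eif3e fell by 0.40 with testosterone against 14 days.

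The eIF4 group recognises the cap and unwinds the mRNA leader. Of its 8 tested probe sets none was called at 3 days, 5 fell at 14 days (24.3% of all tested probe sets), and with testosterone none rose against the 14-day group and 1 fell (18.2% and 26.6%). That one was Eif4a2, an RNA helicase, with 7248, 7996, 8296, 10753 and 7811 in sham, 5947, 7337, 5252, 6186 and 8035 at 14 days, and 4164, 3623, 3367, 3886 and 3796 after testosterone. The testosterone arrays lay below every array of the other 3 groups. Eif4a2 was 1.15 below sham (SE 0.12, adjusted p = 2.70e-07) and 0.78 below the 14-day group (adjusted p = 2.20e-05) after testosterone, and 0.36 below sham at 14 days (adjusted p = 0.0133). The 14-day call ended with quantile normalization (-0.20, adjusted p = 0.0851) and with a fit of only the 2 groups compared (-0.36, adjusted p = 0.0537). Its close relative Eif4a1 was at -0.18 after testosterone against sham (adjusted p = 0.233) and 0.09 against the 14-day group. Whether the 2 helicases differ was not tested. Eif4g2 and Eif4g3, scaffolds related to eIF4G, fell by 0.50 and 0.43 at 14 days; Eif4g2 stayed 0.44 below sham after testosterone and Eif4g3 was not called there (-0.12). Eif4b, which assists the helicase, was lower than sham after testosterone in both tested probe sets (-0.57 and -0.56), but neither was called without the 4 arrays of high Gapdh ratio (-0.32 and -0.28); the fall of 0.47 at 14 days in 1 of them lost its call without any 1 of 14 arrays. Eif4e2, a relative of the cap-binding factor, fell by 0.38 at 14 days in 1 of its 2 probe sets, a call that ended without any 1 of 5 arrays.

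Among the factors that scan for the start codon and join the subunits, Eif1a gave the clearest early change. Its first probe set had 905, 605, 558, 621 and 665 in sham, 451, 352, 379, 369 and 411 at 3 days, 525, 465, 466, 548 and 449 at 14 days, and 637, 803, 749, 668 and 851 after testosterone. It was lower on every 3-day array than on any sham array (-0.74, SE 0.12, adjusted p = 0.000372), was -0.43 at 14 days and rose by 0.58 with testosterone. The second probe set of Eif1a was called only in the last of these, at 0.41 (adjusted p = 0.0218). That call ended without the 4 arrays (0.39, adjusted p = 0.127) and without castrated 14 days replicate 2 (0.38, adjusted p = 0.0516). Eif1ax, whose protein is nearly identical, had probe sets called in opposite directions after testosterone against sham: -0.29 (adjusted p = 0.0246) and 0.96 (adjusted p = 6.94e-06). The second had 821, 805, 837, 923 and 711 in sham and 1262, 2141, 1485, 1410.0 and 1874 after testosterone, with no overlap. The call of the first ended with centred arrays (-0.13, adjusted p = 0.465) and without any 1 of 2 arrays (sham replicate 1, testosterone replicate 3). Because the genes are close copies, the values of Eif1a and Eif1ax are uncertain as to which transcript each probe set reads.

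Eif5, which triggers GTP hydrolysis on eIF2, was not called after castration (0.17 at both times) and fell with testosterone, by 0.59 against 14 days (adjusted p = 0.000175) and by 0.42 against sham; the difference from sham was -0.25 (adjusted p = 0.139) with centred arrays. Eif5b, which joins the ribosomal subunits, fell by 0.90 at 14 days in 1 probe set (adjusted p = 0.00237) and stood at -0.01 in the other. Both were lower than sham after testosterone (-0.80 and -0.38), but the first was not called without the 4 arrays (-0.51, adjusted p = 0.093), nor the second with centred arrays (-0.22, adjusted p = 0.206). Eif6, which keeps the subunits apart and takes part in making the large subunit, had 1035, 1010, 999, 1063 and 770.1 in sham, 1346, 1206, 1228, 1254 and 1345 at 14 days and 1284, 1214, 1475, 1264 and 1271 after testosterone. It was 0.39 higher at 14 days and 0.42 higher after testosterone, with no overlap with sham in either group. Eif1b was not called in any comparison.

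**Figure D3:**
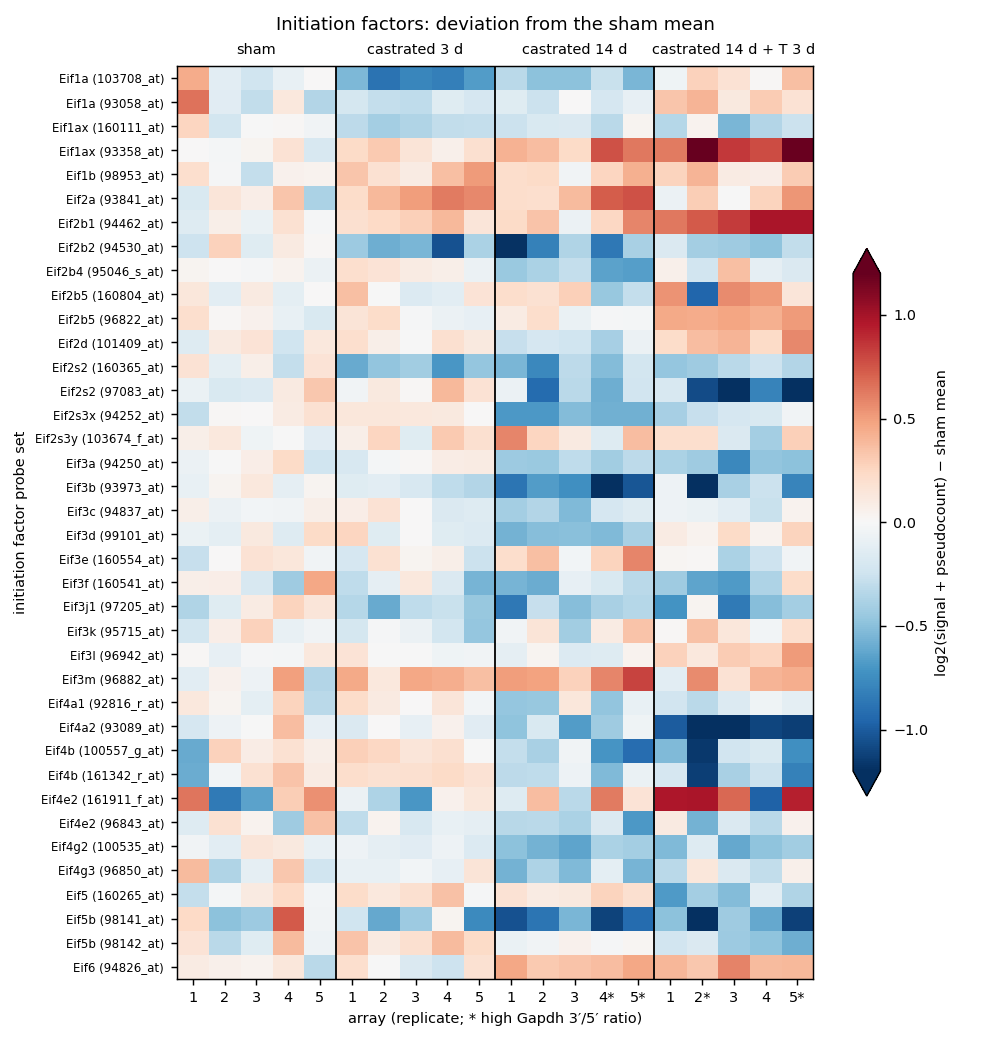
Deviation of log2(signal + pseudocount) from the sham mean for the 38 tested initiation factor probe sets (rows) on the 20 arrays (columns, by group and replicate; asterisks mark the arrays of high Gapdh ratio); the colour scale is saturated beyond 1.2 in either direction. Eif4a2 is low across the 5 testosterone arrays (-1.15 against sham), Eif2b1 is high there (0.83), and Eif2s3x is low across the 14-day arrays (-0.61).

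Of the 7 tested probe sets for regulators, 6 fell and 1 rose at 14 days, where 24.3% of all tested probe sets fell and 28.6% rose. The 6 stand for 4 of the 5 genes, since 3 of them read Eif4ebp2. The dimmest of these 3 passed the filter only through sham and 3-day arrays, where it was high, so its fall adds nothing to the count. The eIF4E-binding protein Eif4ebp1 fell early and stayed down: it had 832, 667, 854, 701 and 825 in sham and 448, 454, 508, 465 and 365 at 3 days. It had 478, 477, 438, 424 and 407 at 14 days and 437, 520.3, 392, 479 and 408 after testosterone. All 15 arrays of the other groups lay below all sham arrays, and the change was -0.78 (SE 0.10) in each of the 3 comparisons with sham (adjusted p = 5.85e-05 at 3 days, 3.76e-06 at 14 days and 5.35e-06 after testosterone). Testosterone against the 14-day group gave 0.00 (SE 0.10, adjusted p = 0.981).

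Its relative Eif4ebp2 fell later. None of its 3 probe sets was called at 3 days (-0.10, 0.18 and 0.01). The brighter 2 fell at 14 days and were lower than sham after testosterone. The dimmest was called lower in both as well, but it passed the filter only through sham and 3-day arrays, where it was high. Its calls therefore add nothing to those of the other 2. The brightest had 5201, 6787, 6931, 6937 and 7010.3 in sham, 3274, 3705, 3140.2, 3589.7 and 3619 at 14 days and 4140.2, 3706, 4094, 3753 and 3809 after testosterone. The testosterone arrays lay just above all 14-day arrays and below all sham arrays, with changes from sham of -0.92 (adjusted p = 9.99e-08) at 14 days and -0.74 (adjusted p = 1.93e-06) after testosterone. The second probe set gave -1.75 and -1.58. The dimmest gave -2.88 and -2.22. It had 9.9, 16.0, 127, 10.1 and 18.0 at 14 days, and 128, 6.1, 93.5, 103 and 6.4 after testosterone, the 2 lowest of these being the arrays of high Gapdh ratio. It passed the filter on signal on 10 arrays, those of sham and 3 days, and 4 of its 14-day signals lie near or below the pseudocount of 12.7, so that the size of its change rests on that constant: at 14 days Eif4ebp2 ranged from -3.55 to -2.08 over the alternatives. Without the 4 arrays its change from sham after testosterone was -1.16 (adjusted p = 0.0246), and its rise over the 14-day group, not called at 0.66, was called at 1.42 (adjusted p = 0.018).

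The kinases of eIF2 that could be tested both fell. Eif2ak1, the kinase that senses haem, had 812, 900.0, 853, 791 and 684 in sham, 391, 377, 544, 346 and 394 at 14 days and 617, 443, 553, 577 and 555 after testosterone. Both later groups lay below all sham arrays and overlapped each other on 1 array of each. Eif2ak1 was not called at 3 days (0.02, adjusted p = 0.93), was 0.97 lower at 14 days (SE 0.11, adjusted p = 8.03e-07), then 0.42 higher with testosterone and still 0.55 below sham. Eif2ak3, the kinase PERK of the endoplasmic reticulum, fell by 0.46 at 14 days (adjusted p = 0.011) and was 0.53 below sham after testosterone; the value at 14 days was -0.41 (adjusted p = 0.0638) without the 4 arrays, and that after testosterone was -0.37 (adjusted p = 0.0584) with centred arrays.

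The only tested regulator called higher than sham was Eef1akmt1, a methyltransferase that modifies the elongation factor eEF1A. It had 371, 257, 301, 287 and 192 in sham, 498, 475, 412, 501 and 400.0 at 14 days and 504, 866, 604, 584 and 787 after testosterone. The 3 groups did not overlap, and the 2 highest testosterone arrays were those of high Gapdh ratio. It was 0.70 higher at 14 days (adjusted p = 0.000671) and 1.21 higher after testosterone than sham (SE 0.15, adjusted p = 2.56e-06). The further rise of 0.52 over the 14-day group was 0.28 (adjusted p = 0.191) when the 4 arrays were left out.

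Of the 4 tested elongation factors, 1 fell and 1 rose at 14 days, where 24.3% and 28.6% of all tested probe sets did. Eef1a1, which delivers charged tRNA to the ribosome, ran from 13316 to 23656 over the 20 arrays and was not called in any comparison: -0.13 at 3 days, -0.23 (adjusted p = 0.113) at 14 days and 0.04 after testosterone against sham. Without the 4 arrays it was called lower at 14 days (-0.40, adjusted p = 0.0106) and higher with testosterone against 14 days (0.49, adjusted p = 0.00754); the latter was also called with centred arrays (0.47, adjusted p = 0.0149). Eef2, which moves the ribosome by 1 codon, had 8273, 10345, 10635, 10061 and 11279 in sham and 6835, 7543, 6515, 5832 and 6589 at 14 days, without overlap. It fell by 0.60 at 14 days (SE 0.12, adjusted p = 0.000458) and was 0.47 below sham after testosterone, or 0.28 below (adjusted p = 0.0287) without the 4 arrays. Eef1d, part of the exchange factor for eEF1A, was 0.40 lower with testosterone than at 14 days, and -0.20 (adjusted p = 0.234) with centred arrays; its rise of 0.27 at 14 days ended without any 1 of 8 arrays, and that of 0.32 over 3 days without any 1 of 2 (castrated 3 days replicate 4, castrated 14 days replicate 2).

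Eef1a2, the form of eEF1A known from muscle and nerve, varied widely between mice of a group. It had 346, 916, 749.5, 269 and 404 in sham, 363, 267, 411, 479 and 710.4 at 3 days, 694, 1024, 1935, 491 and 336 at 14 days and 299, 459, 438, 728 and 153 after testosterone. The groups overlapped throughout, and no comparison was called, the lowest adjusted p being 0.0786 for testosterone against 14 days (-0.99); without the 4 arrays it was called there (-1.26, adjusted p = 0.0434) and higher at 14 days against sham (1.18, adjusted p = 0.0279). The array with 1935 also had the highest summed signal of the 28 skeletal muscle marker probe sets, 42794, in a 14-day group that ran from 5093. Of the 19 muscle probe sets tested, 12 rose from 3 to 14 days and none fell, where 20.2% of all tested probe sets rose and 20.4% fell. That sum ran from 5711 to 26946 in sham, 3394 to 7107 at 3 days and 13284 to 42499 after testosterone, and its part in the Eef1a2 values was not tested. Without that array, Eef1a2 at 14 days against sham stood at 0.27 in place of 0.61.

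**Figure D4:**
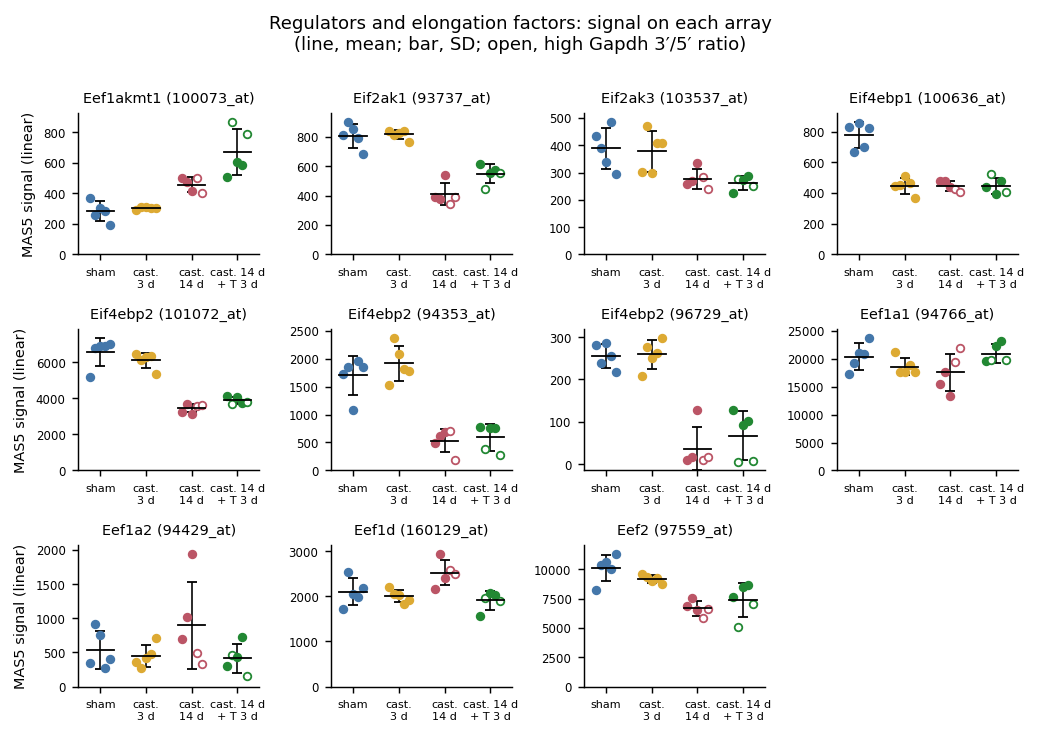
MAS5 signal (linear axis) of the 7 regulator and 4 elongation factor probe sets tested, on each array; lines are means, bars 1 SD over 5 mice, and open circles the 4 arrays of high Gapdh ratio. Eif4ebp1 lies lower in all 3 castrated groups (means 448, 445 and 447, against 776 in sham), the 3 probe sets of Eif4ebp2 drop between 3 and 14 days, and Eef1akmt1 rises from 281 in sham to 669 after testosterone. The dimmest Eif4ebp2 probe set passed the filter only through sham and 3-day arrays, where it was high.

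The 19 member probe sets below the filter gave no test. They included both probe sets of Eif4e, the cap-binding factor (group means from 7.68 to 70.1), that of Eif5a, a factor for difficult peptide bonds (40.7 to 121), those of the eIF2 kinases Eif2ak2 and Eif2ak4, and those of Eif4h, Eif4enif1, Eef1b2, Eef1g and Kars, the lysine enzyme (66.1 to 114). Further probe sets of Eif2d, Eif3b, Eif3e, Eif3l, Eif4b and Yars were also below it, although another probe set of the same gene was tested. Eef2k, the kinase of eEF2, had 163, 152, 229, 145 and 153 in sham and 88.7, 17.4, 156, 152 and 33.9 after testosterone, the 2 lowest being the arrays of high Gapdh ratio. A low signal on this array says how bright a probe set is, and not that the transcript is scarce.

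**Figure D5:**
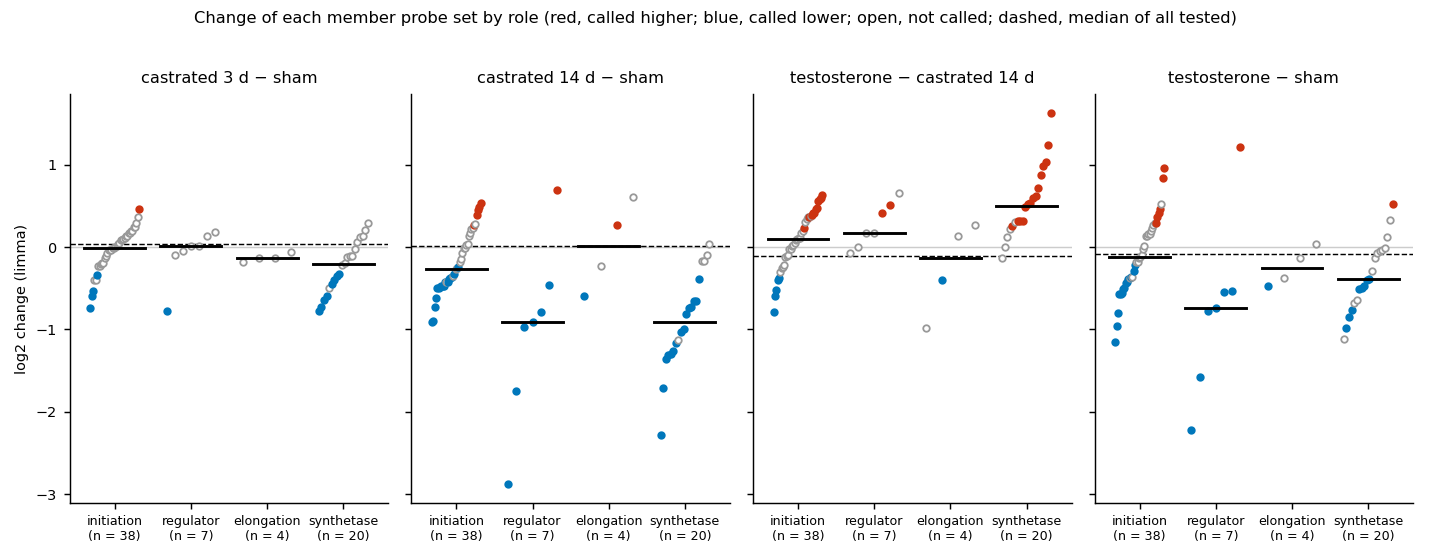
Log2 change of each tested member probe set by role in 4 comparisons, with its call by limma (filled red higher, filled blue lower, open not called); thick lines are role medians and the dashed line is the median of all 6913 tested probe sets. The synthetase median lies at -0.90 at 14 days and 0.50 for testosterone against 14 days, and the regulator median stays at -0.74 for testosterone against sham.

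Other proteins of cytoplasmic translation were listed apart from the members. Of 20 tested probe sets 14 fell and 1 rose at 14 days (median -0.43), against 24.3% and 28.6% of all tested probe sets. With testosterone against the 14-day group 7 rose and 1 fell, against 18.2% and 26.6% of all. Pabpc4, a poly(A)-binding protein, fell by 1.10 at 14 days (adjusted p = 2.50e-08). Of the 5 probe sets of Etf1, the release factor that ends translation, 4 were tested and all 4 fell at 14 days, by 0.37 to 1.33. Gspt1, its GTPase partner, fell by 0.68 and rose with testosterone to 0.32 above sham. Abcf2, an ATP-binding protein of the same list, fell by 2.06 at 14 days in the 1 of its 2 probe sets that was tested. Paip2, which restrains the poly(A)-binding protein, was the 1 that rose at 14 days (0.27) and fell with testosterone (-0.94 against 14 days). Of 10 mitochondrial translation probe sets tested, none was called at 3 days, where 14.3% of all tested probe sets were. At 14 days 2 rose and 1 fell (28.6% and 24.3% of all). None was called for testosterone against 14 days (median 0.07), where 44.8% of all were. Iars2, the mitochondrial isoleucine enzyme, was 0.61 higher at 14 days, where cytoplasmic Iars was 0.72 lower, and Fars2 was 0.30 lower.

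Another list held Atf4 and genes of the stress response it is known to drive, several of which make or import amino acids, and most of its tested probe sets fell after castration. Of 21 tested probe sets, 13 fell and none rose at 3 days, where 4.46% of all tested probe sets fell and 9.84% rose. At 14 days 14 fell and 2 rose, where 24.3% of all fell and 28.6% rose. Atf4 itself had means of 3205 in sham, 2162 at 3 days, 1715 at 14 days and 1784 after testosterone, and was 0.56, 0.90 and 0.84 below sham in that order. Asns, asparagine synthetase, fell by 1.50 at 14 days in its brighter probe set, rose by 0.55 with testosterone and stayed 0.95 below sham. Slc7a5, a carrier of large neutral amino acids, fell by 2.16 and, after a called rise with testosterone, was still 1.15 below sham. Mthfd2, of mitochondrial one-carbon metabolism, fell by 2.44 and rose by 2.31, and Psat1, of serine synthesis, fell by 1.72 and rose by 2.05, so that neither was called against sham after testosterone (-0.13 and 0.34).

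With testosterone this list split: 9 of 21 rose and 6 fell against the 14-day group (18.2% and 26.6% of all tested probe sets). Against sham 16 were lower and none higher (29.5% and 23.5% of all). Among those that fell were Nupr1, a stress-induced nuclear protein (1.61 higher at 14 days, then -3.56), and Ddit3, the stress factor CHOP (-1.59 against 14 days, adjusted p = 2.73e-05). Trib3 did not pass the filter. The list shares no probe set with the members.

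Of 24 tested probe sets of the mTOR pathway and the control of translation, none was called at 3 days, where 14.3% of all tested probe sets were; 7 fell and 2 rose at 14 days (24.3% and 28.6% of all), and 10 were lower and 1 higher than sham after testosterone (29.5% and 23.5% of all). Neither probe set of Mtor was called at 14 days (-0.15 and -0.03), and 1 was 0.44 below sham after testosterone. Tsc2, a brake on mTOR, fell by 0.57 at 14 days in 1 of its 2 tested probe sets and Lamtor2, of its lysosomal anchor, fell by 0.45 and rose by 0.38 with testosterone. Of 22 probe sets for Myc and ribosome biogenesis, 8 rose and 4 fell at 14 days (28.6% and 24.3% of all; median 0.06), and Myc was not called in any comparison. Nop56, a nucleolar protein, was 0.64 higher with testosterone than at 14 days and 0.93 above sham, and Mxd4, a Max partner, fell by 1.19 at 14 days.

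Cell type markers moved with these groups as well. Of all tested probe sets, 9.84% rose and 4.46% fell at 3 days, and 28.6% rose and 24.3% fell at 14 days. With testosterone against the 14-day group, 18.2% of all rose and 26.6% fell. Of 13 tested macrophage and myeloid probe sets 10 rose at 3 days, 11 at 14 days, and 12 fell with testosterone against 14 days, the reverse of the synthetase calls. Of 7 luminal probe sets 3 fell and 2 rose at 14 days: Msmb and Pbsn, secreted prostate proteins, fell by 6.49 and 1.80, and the keratin gene Krt8 and Epcam rose by 0.96 and 0.71. Smooth muscle markers, of which 5 of 9 fell and 1 rose at 14 days and 7 of 9 rose with testosterone, had summed signals of 34051, 27357, 26314 and 48868 (group medians in the order above). Of 8 tested nerve and neuroendocrine probe sets 7 rose and 1 fell at 14 days, of 16 fibroblast probe sets 12 rose and 2 fell, and of 7 endothelial probe sets 5 rose. Of 2 tested basal epithelial probe sets 1 rose, and of 4 tested lymphocyte probe sets 1 rose and 1 fell. Their part in the member changes was not tested.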

How the data were processed

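Signals were analysed from 20 arrays. Per the submitters' processing notes, the deposited values are MAS5 5.0 signal intensities, 1 per probe set on a linear scale; the mean of each array without its extremes lay between 499.4 and 499.9, so a scaling before deposit was inferred. Symbols came from GEO's annotation of the array; 10833 of 12422 probe sets had 1 symbol. Signals plus a pseudocount of 12.7 (the 10th percentile) were taken to log2. Probe sets above 190.8 (the median) on at least 5 arrays were tested, 6913 in all, in 1 limma 3.58.1 fit (R 4.3.3) of 4 groups and 5 contrasts, two-sided, with Benjamini-Hochberg adjustment over all tested probe sets. The fit was tested on simulated data. Each mouse has 1 array, and 5 arrays per group limit the precision. Members, gene lists and tests were chosen with earlier results of these data known. Named genes were, per role and contrast, up to 4 called probe sets of largest change, a fixed set, and genes whose probe sets disagreed; other called members are given by their change. Alternatives were other pseudocounts and filters, centring, quantile normalization, only the compared groups, array weights and leaving out arrays. Promoters came from RefSeq (GRCm38.p6); the stretches of 1 gene are not reported here. Running numbers in the array titles follow the groups, so a batch of that kind cannot be told apart from treatment.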

Additional observations from a re-analysis of the deposited data

Results flagged for a closer look

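In each group of 5 arrays, the highest or lowest signal of a member probe set was singled out when its gap to the nearest array exceeded 0.71 of the group's whole range (Dixon's 95% value). All 88 member probe sets were examined, those not tested included. Of 352 groups 22 passed, where chance gives about 1 in 20, and 4 of the 22 were on arrays of high Gapdh ratio.

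Replicate 3 of the 14-day group was high for Wars (3058, the others 448 to 879, ratio 0.835), for the dimmest Eif4ebp2 probe set (127, the others 9.9 to 18.0, ratio 0.931) and for Eif2ak1 (544, the others 346 to 394, ratio 0.757). The same array had the highest skeletal muscle sum. The 4 on arrays of high Gapdh ratio were Eif4enif1 (34.4, the others 5.9 to 13.1, ratio 0.747) and a Kars probe set (22.3, the others 103 to 127, ratio 0.764) on castrated 14 days replicate 4, a Yars probe set on castrated 14 days replicate 5 (72.9, the others 135 to 146, ratio 0.851) and Eif3f on testosterone replicate 5 (221, the others 113 to 143, ratio 0.719).

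Sham replicate 1 was low for the brightest Eif4ebp2 probe set (5201, the others 6787 to 7010.3, ratio 0.877) and for Eif4b (1673, the others 2681 to 3092, ratio 0.711). It was high for Cars (1024, the others 633 to 735, ratio 0.739) and Farsa (454, the others 333 to 357, ratio 0.805). Sham replicate 3 was low for another Eif4ebp2 probe set (1086, the others 1733 to 1966, ratio 0.735) and high for Eef2k (229, the others 145 to 163, ratio 0.792). Eif6 was low on sham replicate 5 (770.1, the others 999 to 1063, ratio 0.779) and high on testosterone replicate 3 (1475, the others 1214 to 1284, ratio 0.733).

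In the 3-day group, Eif3l was high on replicate 1 (3974, the others 3433 to 3547, ratio 0.789), and its dim second probe set on replicate 3 (49.8, the others 3.2 to 16.3, ratio 0.719). Also on replicate 3, a dim Eef1g probe set was high (12.6, the others 3.7 to 6.2, ratio 0.719). Cars was high on replicate 4 (685, the others 399 to 482, ratio 0.711). On replicate 5 Eif2s3x was low (4090.3, the others 4426 to 4482, ratio 0.857) and Eif4g3 was high (917, the others 767 to 806, ratio 0.74). The remaining one was Eif4e2 on testosterone replicate 4 (66.3, the others 236 to 293, ratio 0.748).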

How the results depend on the processing

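The member and synthetase counts and medians of the 5 comparisons were recomputed under 29 alternatives. Several counts and medians moved, as given below. Of 120 calls of the named probe sets, 85 held in all 29 and 35 were lost in at least 1. No paired analysis was made, since each array is from a different mouse and the labels name no pairs. Replicate numbers follow the order of the arrays, because the labels carry none. Leaving out 1 array gave 0 to 3 member probe sets higher at 3 days (1 with all arrays; 0 without any of 9 arrays, 3 without sham replicate 4), 2 to 7 higher between 3 and 14 days (4 with all; 2 without castrated 3 days replicate 4 or 14 days replicate 2, 7 without 14 days replicate 3), and medians of -0.36 to -0.30 between 3 and 14 days, 0.21 to 0.29 for testosterone against 14 days and -0.29 to -0.21 against sham. With each array centred on its median, probe sets higher numbered 0 at 3 days, 4 (of 7) at 14 days and 2 (of 4) between them; synthetases lower numbered 5 (of 8) at 3 days; testosterone against 14 days had 2 lower (of 6) and a median of 0.43 (of 0.23), and against sham 16 lower (of 29), 2 synthetases higher, 4 lower (of 8) and a median of -0.12 (of -0.29). Without the filter, 0 rose at 3 days and the medians were -0.26 between 3 and 14 days (of -0.31), 0.17 and -0.35; a filter on the mean signal gave -0.22 against sham. Quantile normalization gave medians of 0.28 and -0.23 for testosterone against 14 days and sham. Array weights gave 2 higher at 3 days, 7 between 3 and 14 days, and 2 synthetases higher and a median of -0.21 against sham. Leaving out the 4 arrays of high Gapdh ratio, an alternative chosen after seeing the data, gave medians of -0.35, 0.28 and -0.17 and 2 synthetases higher against sham. The cause was not tested; fewer arrays also means fewer probe sets tested. Probe sets near background limit what can be seen.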
